A study of Mus musculus with 14 samples.

Results

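The measure described here is the genotype-by-day interaction, that is, how far the effect of losing Tip60 on each gene's mRNA at day 5 differed from its effect at day 3. It was taken over all 14 of the 14 RNA-seq libraries of the series and over 14327 of 26270 gene identifiers, those with enough counts to be tested. The cells were mouse embryonic fibroblasts of E13.5 embryos, kept at 3% O2. The 4 groups were control at day 3 (Tip60+/+, n = 3), control at day 5 (Tip60+/+, n = 4), KO at day 3 (Tip60-/-, n = 3) and KO at day 5 (Tip60-/-, n = 4), the day being the length of the 4-hydroxytamoxifen course at 250 nM by which the gene was deleted. All groups carry the same treatment text, so control cells may or may not have had the drug, and the labels name neither a Cre driver nor the deleted exons. A positive interaction means that KO relative to control was higher at day 5 than at day 3, and a negative one that it was lower. Such a value can come from any of the 4 groups. Where levels or day changes are given below, they show which group it was, and some genes are given by their interaction alone.

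Tip60, the product of Kat5, is a lysine acetyltransferase that works within a large chromatin complex, where it acetylates histones H4 and H2A beside the exchange of the variant H2A.Z. It is known as a coactivator of several transcription factors and for its part in the response to DNA breaks. A good part of the genes below belong to the unfolded protein response, by which cells raise chaperones of the endoplasmic reticulum (ER) when unfolded proteins build up there. Its sensors Atf6 and Ern1 (IRE1) act on chaperone genes through transcription factors that bind short promoter elements, whereas another branch acts through Atf4 on amino acid transport and on stress genes such as Ddit3.

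Library totals ran from 2187168 counts (KO day 3 replicate 3) to 39203154 counts (KO day 3 replicate 2). The KO libraries came from litters 136, 153 and 159 and the control libraries from litters 218 and 219, so litter and genotype cannot be told apart. Of the control libraries 1 was male (day 5 replicate 4, the only one of litter 219), and of the KO libraries 5 were. Control day 5 replicate 4 stood apart from its group on the first principal component, at -0.07 against -39.7 to -33.0 for the other 3, on the side of the KO libraries (26.1 to 58.9). Replicates 1 and 2 of control at day 3 share an embryo, and 3 KO and 2 control embryos gave libraries at both days, so p-values describe the spread between libraries that are not all independent. Fibroblast markers were present (14 of 14 tested, summed level 18000 to 29700 CPM), and those of blood and liver lay at 0.979 CPM or less in sum, with Hba-a1, Alb, Ttr and Serpina1a at 0. In these bulk samples fewer cells of a type and less RNA per cell cannot be told apart.

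Kat5 (gene 81601) stood at 31.5, 32.3 and 32 CPM in control at day 3, 30.9, 29.8, 32.1 and 30.9 in control at day 5, 21.1, 20.2 and 18.3 in KO at day 3 and 17.3, 17.8, 19.9 and 18.7 in KO at day 5. The KO libraries all lay below all control libraries on both days. KO relative to control was -0.68 ± 0.0856 on the log2 scale at day 3 (adjusted p = 2.02e-05) and -0.75 ± 0.0706 at day 5 (adjusted p = 1.59e-06). The interaction was -0.06 ± 0.111 (SE), adjusted p = 0.759, which is not a call at the threshold of 0.05.

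An interaction was called for 2051 of 14327 genes (14.3%), of which 1026 were positive (7.16%) and 1025 negative (7.15%). Among them 283 positive and 341 negative interactions exceeded 1 on the log2 scale, and the median size was 0.741. An unadjusted p under 0.05 was reached by 4234 genes. The median interaction of all tested genes was 0.00015, a value that the TMM scaling holds near 0. The split by direction moved with the method, to 935 positive and 1105 negative with RLE scaling and 1031 and 1355 with DESeq2. Leaving out control day 3 replicate 3 lowered the number to 1275, and leaving out control day 5 replicate 4 raised it to 2750. The number of negative interactions was 618 without control day 3 replicate 3 and 681 without control day 3 replicate 2, and the number of positive ones was 657 without control day 3 replicate 3.

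The called genes moved mostly in the control cells. The change from day 3 to day 5 was larger in size in control than in KO for 1749 of the 2051 (85.3%). All tested genes leaned the same way, but their share with the larger change in control was not computed. Of them, 5481 changed between the days in control (38.3%) and 1725 in KO (12%, with 1012 lower, 7.06%). Their median absolute day change was 0.32 in control and 0.188 in KO on the log2 scale. KO and control differed for 7288 genes at day 3 (50.9%) and for 7519 at day 5 (52.5%). The count of genes that changed over the days in KO fell to 1024 without KO day 3 replicate 4, to 1104 without KO day 5 replicate 3 and to 1107 without KO day 5 replicate 4. Within embryos sampled at both days, the day change of all 3 KO embryos lay on one side of both control embryos, in the direction of the interaction, for 2035 of the 2051 genes and on the opposite side for 0. The same libraries entered the test, and over all tested genes such separation held for 46.8%.

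**Figure D1:**
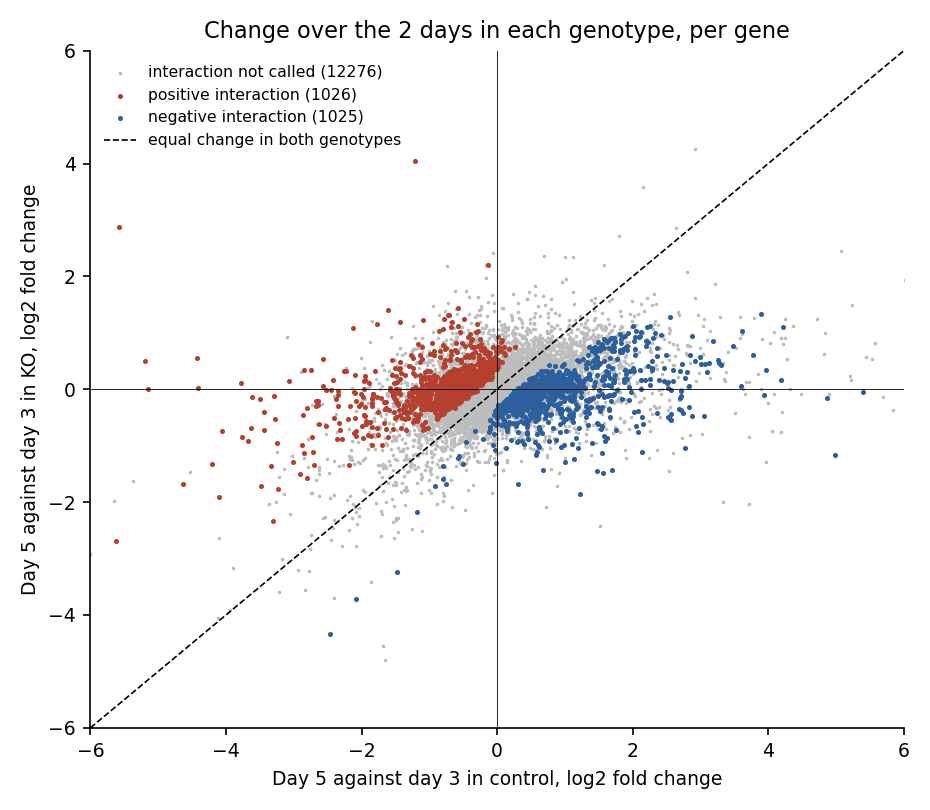
Log2 fold change from day 3 to day 5 in control cells (x axis) against the same in KO cells (y axis), 1 point per tested gene, with 10 genes outside the axes. Positive interactions (1026, red) lie above the dashed line of equal change and negative ones (1025, blue) below it, and both spread further along the control axis than along the KO axis.

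Sorting the called genes by which comparisons with each group passed the test gave 601 genes for which control at day 3 stood apart (4.19% of all tested genes; 311 with a positive and 290 with a negative interaction). For these, control at day 3 differed by call from both KO at day 3 and control at day 5. KO at day 5 did not differ by call from control at day 5 or from KO at day 3. No test compared groups that differ in both genotype and day, such as control at day 5 and KO at day 3. Control at day 5 stood apart for 368 (2.57%; 173 positive, 195 negative), KO at day 3 for 56 (0.391%; 37 positive, 19 negative) and KO at day 5 for 74 (0.517%; 34 positive, 40 negative). Of the remainder, 529 changed over the days by call in control and not in KO (3.69%), 36 in KO and not in control (0.251%), 205 in both in the same direction (1.43%), 78 in both in opposite directions (0.544%) and 104 in neither (0.726%). A comparison that missed the threshold does not show that its groups were alike. Without control day 3 replicate 3 the 4 counts of a single group apart were 381, 235, 28 and 42.

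**Figure D2:**
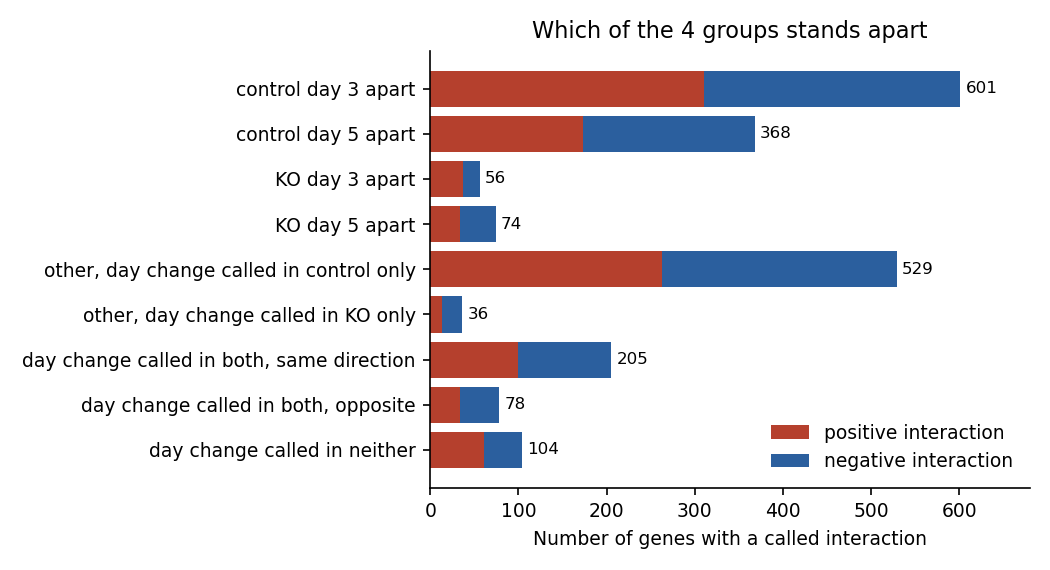
Number of genes with a called interaction (x axis, 2051 in all) by the group or day change that the component tests single out, positive interactions in red and negative in blue. Control at day 3 apart (601 genes) and control at day 5 apart (368) hold more genes than KO at day 3 apart (56) and KO at day 5 apart (74).

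In terms of the KO effect, 796 of the 2051 genes had the same sign on both days and a smaller effect at day 5 (5.56%), and 257 the same sign and a larger effect at day 5 (1.79%). The sign was opposite for 998 genes in the fitted values, and for 202 of these (1.41% of all tested genes) the KO effect passed the test on both days, while for the other 796 (5.56%) it did not. Every class held positive and negative interactions.

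Promoters of ER chaperone genes were searched for the ER stress response element (ERSE), because 86.7% of that list had a called interaction. The element is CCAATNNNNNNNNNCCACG, read on both strands, and the window ran from 250 bases before to 50 bases after each RefSeq transcription start of GRCm38.p6 (mm10). Of 14327 tested genes 10994 had a window. The following stretches are the 200 bases before the start, 5′ to 3′ along the gene's strand, with the element in capitals. They show the element at the chaperone genes Hspa5, Hsp90b1 and Pdia6 and at Creld2 and Derl3, which take part in ER folding and ER-associated degradation.
Hspa5, chr2:34771890-34772089, strand +: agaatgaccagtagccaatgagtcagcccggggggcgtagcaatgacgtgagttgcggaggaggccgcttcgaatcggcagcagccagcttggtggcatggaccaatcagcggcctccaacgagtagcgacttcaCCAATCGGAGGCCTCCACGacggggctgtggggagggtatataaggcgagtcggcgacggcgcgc
Hsp90b1, chr10:86705445-86705644, strand -: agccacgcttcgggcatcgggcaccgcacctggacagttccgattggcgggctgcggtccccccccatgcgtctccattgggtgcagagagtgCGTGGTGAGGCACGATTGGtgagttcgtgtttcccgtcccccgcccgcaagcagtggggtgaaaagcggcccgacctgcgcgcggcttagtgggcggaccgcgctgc
Pdia6, chr12:17266389-17266588, strand +: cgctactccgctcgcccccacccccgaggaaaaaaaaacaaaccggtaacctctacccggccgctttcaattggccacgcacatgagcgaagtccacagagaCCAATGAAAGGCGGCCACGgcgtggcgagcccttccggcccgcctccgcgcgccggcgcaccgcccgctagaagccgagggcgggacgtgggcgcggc
Creld2, chr15:88819446-88819645, strand +: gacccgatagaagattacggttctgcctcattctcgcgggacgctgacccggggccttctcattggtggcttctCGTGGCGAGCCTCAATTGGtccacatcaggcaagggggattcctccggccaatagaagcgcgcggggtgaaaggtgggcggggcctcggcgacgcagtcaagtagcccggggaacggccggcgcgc
Derl3, chr10:75893198-75893397, strand +: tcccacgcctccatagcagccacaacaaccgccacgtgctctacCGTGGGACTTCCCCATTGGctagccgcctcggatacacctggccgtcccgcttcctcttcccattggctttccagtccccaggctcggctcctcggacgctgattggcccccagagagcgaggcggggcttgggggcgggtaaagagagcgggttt
The first base of the element lay at -65 from the start in Hspa5, -107 in Hsp90b1, -98 in Pdia6, -126 in Creld2 and -156 in Derl3. In Hspa5 and Pdia6 the printed strand reads CCAAT first, and in the other three it reads the reverse complement, CGTGG first. These 5 genes were picked from the list with their values known.

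The ERSE was present in the windows of 18 tested genes, 0.164% of those with a window. Of these 18, 14 had a called interaction, each positive. The search followed from the ER list, and the 9 genes that belong to it (9 called) repeat that list's result. Of the 9 outside it 5 were called (Ero1b, Zfp57, Alg12, Hnrnpa3 and Pan2), beside 14.3% of all genes. Ero1b also acts in ER folding, so these 5 are not a count independent of that list. Whether any of them shares its element with a neighbouring gene was not examined. The 14 were Derl3 (5.70 on the log2 scale), Ero1b (2.12), Hspa5 (1.66), Creld2 (1.59), Zfp57 (1.25), Hsp90b1 (1.23), Dnajc3 (0.87), Calr (0.84), Alg12 (0.83), Pdia6 (0.76), Hnrnpa3 (0.74), Pan2 (0.73), Syvn1 (0.67) and Canx (0.48). The calls of Canx and Hnrnpa3 were lost on leaving out any of 8 and 4 single libraries. Xlr3b, Acacb, Adcy3 and Spats2l had the element and no call, at 0.44, 0.33, 0.13 and -0.47. Among genes with a positive interaction and a window, 14 of 808 had the element (1.73%), and among those with a negative interaction 0 of 790. In the ER list it was present in 9 of 26 members with a window (34.6%). A match describes letters in a window and not binding.

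**Figure D3:**
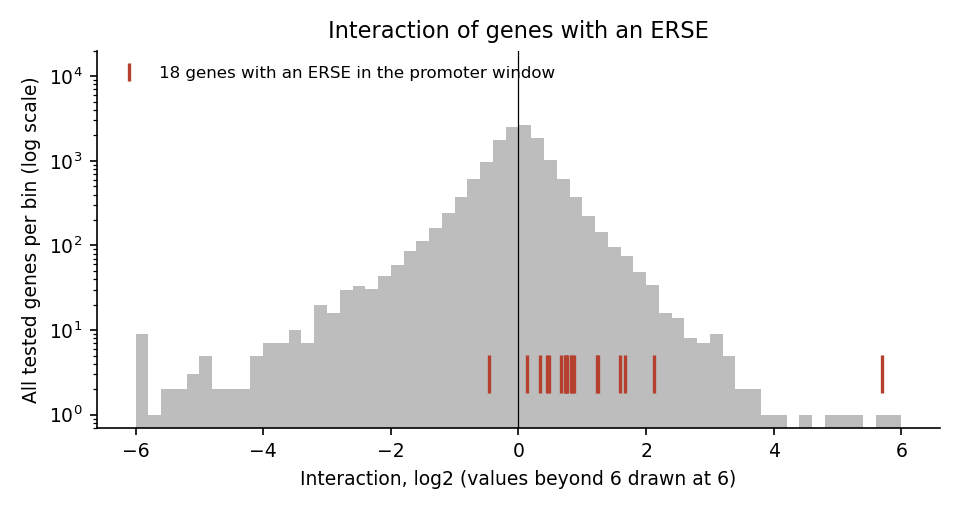
Histogram of the interaction (x axis, log2; y axis, number of tested genes per bin on a log scale) with the 18 genes that have an ERSE in the promoter window as red ticks at an arbitrary height. The ticks run from -0.47 (Spats2l) to 5.70 (Derl3), and 17 of the 18 lie above 0.

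ER chaperones and genes of the unfolded protein response were high in control cells at day 3 and had mostly positive interactions. Of 30 members, all tested, 25 had a positive interaction and 1 a negative one (86.7% called, beside 14.3% of all genes). The median interaction was 0.88 (all genes: 0.00015). The members fell over the days in control cells (26 lower, 1 higher; median -0.96), and in KO 5 fell (5 lower, 0 higher; median -0.14). KO was lower than control for 28 members at day 3 (median -0.99), and at day 5 it was lower for 16 and higher for 4 (median -0.31). Of all genes 19.9% fell in control and 7.06% in KO. KO was lower for 26.2% of all genes on each day and higher for 26.3% at day 5. For 8 of the 30 control at day 3 stood apart with a positive interaction.

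Hspa5 encodes BiP, the main Hsp70 chaperone of the ER lumen (gene 14828), and its level was 7249.5, 5365 and 6152 CPM in control at day 3, 1261, 1282, 1413 and 1518 in control at day 5, 1710.2, 1725 and 1606 in KO at day 3 and 1136, 1237, 1163 and 1119 in KO at day 5. The 3 control libraries of day 3 were the highest of the 14, and the groups did not overlap. Hspa5 fell by call over the days in both genotypes, by -2.19 ± 0.111 in control and -0.53 ± 0.109 in KO on the log2 scale. KO relative to control was -1.90 ± 0.121 at day 3 (adjusted p = 8.26e-08) and -0.23 ± 0.102 at day 5, where it missed the threshold (adjusted p = 0.0666). The interaction was 1.66 ± 0.156 (SE), adjusted p = 3.98e-05. Within embryos, the day change was -0.47, -0.57 and -0.52 in the KO embryos 136-e2-II, 153-e3 and 153-e5 and -2.31 and -2.12 in the control embryos 218-e1 and 218-e6.

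Hsp90b1 encodes GRP94, the Hsp90 chaperone of the ER (gene 22027). Its level was 5396, 6035 and 6136 CPM in control at day 3, 1855, 1852, 1942 and 2119 in control at day 5, 1707, 1629 and 1499.7 in KO at day 3 and 1253, 1312, 1282 and 1165 in KO at day 5. These groups did not overlap either, and control at day 3 was again the highest. For Hsp90b1 the KO effect shrank from -1.86 ± 0.104 at day 3 to -0.63 ± 0.0872 at day 5, both called, with an interaction of 1.23 ± 0.133 (SE), adjusted p = 9.52e-05. Sdf2l1, an ER protein that works with BiP (gene 64136), stood at 76.9, 73.4 and 78.2 CPM in control at day 3, 23.1, 22, 22.6 and 25 in control at day 5, 21.1, 22.5 and 27.8 in KO at day 3 and 20.4, 20.5, 22.3 and 22 in KO at day 5. Here control at day 3 was the group apart, and the other 3 overlapped. The Sdf2l1 interaction was 1.55 ± 0.13 (SE), adjusted p = 1.97e-05. Hyou1, an ER chaperone of the Hsp110 family (gene 12282), repeated that order, with 695 to 728 CPM in control at day 3, 222 to 291 in control at day 5, 242 to 275 in KO at day 3 and 239 to 255 in KO at day 5. Its interaction was 1.50 ± 0.131 (adjusted p = 2.71e-05).

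Derl3, an ER membrane protein of the degradation pathway (gene 70377), was measurable in control cells at day 3 and near the counting floor elsewhere. It stood at 8.33, 11.4 and 13.53 CPM in control at day 3, 0.0644, 0.311, 0.326 and 0.509 in control at day 5, 0.211, 0 and 0.604 in KO at day 3 and 0.42, 0.213, 0.66 and 0.376 in KO at day 5. The group sums were 364, 16, 14 and 34 counts in the same order, and 1 KO library of day 3 had none. Its interaction, 5.70 ± 0.742 (SE), adjusted p = 0.00033, rests on those low counts.

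The sensors Atf6 and Ern1 differed in which groups were called apart. Atf6, whose cleaved form binds the ERSE with NF-Y (gene 226641), stood at 189.7, 171 and 165 CPM in control at day 3, 75.2, 76.7, 69.7 and 72.7 in control at day 5, 91.8, 91.1 and 87 in KO at day 3 and 78.6, 79.9, 85.5 and 87.5 in KO at day 5. At day 3 every control library was above every KO library, and every KO library was above every control library at day 5. The KO effect on Atf6 thus had opposite signs, -0.96 ± 0.0722 at day 3 (adjusted p = 2.54e-07) and 0.17 ± 0.0614 at day 5 (adjusted p = 0.0306), with an interaction of 1.13 ± 0.0946 (SE), adjusted p = 1.97e-05. Ern1, the kinase and nuclease that splices Xbp1 mRNA (gene 78943), stood at 25.6, 29.4 and 26.7 CPM in control at day 3, 12.6, 13.3, 11.6 and 15.7 in control at day 5, 22.9, 24.9 and 25.2 in KO at day 3 and 27.4, 25.6, 29.8 and 29.5 in KO at day 5. Here control at day 5 was the low group, and the other 3 groups lay within 22.9 to 25.2 and 25.6 to 29.8 CPM in KO and 25.6 to 29.4 CPM in control at day 3. The Ern1 interaction was 1.24 ± 0.147 (SE), adjusted p = 0.000164, and Xbp1 itself had 0.45 ± 0.14 (adjusted p = 0.0434). The Xbp1 call was lost on leaving out any of 10 single libraries, with the embryo as a block and with RLE scaling. Sec24d, a coat protein of vesicles that leave the ER, was the negative member, with 132 to 181 CPM in control at day 3, 212 to 231 in control at day 5, 115 to 131 in KO at day 3 and 94.5 to 108 in KO at day 5. Sec24d had an interaction of -0.84 ± 0.132 (adjusted p = 0.0012). The members without a call were Pdia5, P4hb, Selenos and Sec61b.

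Genes of the Atf4 branch fell over the days in both genotypes. Of 27 tested members 25 fell in control (median -1.13) and 22 in KO (median -0.72), while KO was lower than control for 23 at day 3 and 20 at day 5. Of all genes 19.9% fell in control and 7.06% in KO, and KO was lower for 26.2% on each day. The interaction was called positive for 9 and negative for 1, Adm2 (37% called, beside 14.3% of all genes). Ddit3 (CHOP, gene 13198) stood at 278, 260.3 and 251 CPM in control at day 3, 33.5, 36.7, 42.4 and 29 in control at day 5, 61.4, 73.3 and 66.8 in KO at day 3 and 21.6, 22.1, 26.4 and 24 in KO at day 5. All 4 groups were separate, and control at day 3 was the highest. The Ddit3 interaction was 1.40 ± 0.156 (SE), adjusted p = 0.000115. Ppp1r15a (GADD34), which recruits the phosphatase that reverses eIF2 phosphorylation, had 144 to 172 CPM in control at day 3, 28 to 35.1 in control at day 5, 33.8 to 45.1 in KO at day 3 and 22.3 to 24.4 in KO at day 5. Its interaction was 1.59 ± 0.141 (adjusted p = 2.71e-05). Atf3, a stress-induced transcription factor, turned from -1.52 ± 0.20 at day 3 to 0.76 ± 0.186 at day 5 in its KO effect, both called, with 36.3 to 43.5 CPM in control at day 3, 2.62 to 5.55 in control at day 5, 12.1 to 17.4 in KO at day 3 and 6.2 to 8.36 in KO at day 5.

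Both chains of the cystine transporter, whose light chain is xCT, are in this list. The shared heavy chain Slc3a2 fell in both genotypes, with 355 to 432 CPM in control at day 3, 131 to 149.6 in control at day 5, 172 to 188 in KO at day 3 and 119 to 139 in KO at day 5, and had an interaction of 0.99 ± 0.116 (adjusted p = 0.000163). The light chain Slc7a11 (gene 26570) stood at 46.3, 48.2 and 54.9 CPM in control at day 3, 11.9, 13.49, 12.7 and 17.7 in control at day 5, 45.2, 70.4 and 104 in KO at day 3 and 74.1, 79.3, 56 and 66.8 in KO at day 5. Control at day 5 was below every other library for Slc7a11, and its interaction was 1.76 ± 0.332 (SE), adjusted p = 0.00478. Among 12 aminoacyl-tRNA synthetases, whose mRNAs are also Atf4 targets, KO was lower for 12 on each day, beside 26.2% of all genes. Only Wars had a called interaction, 1.38 ± 0.133 (adjusted p = 4.45e-05). Wars had 254 to 272 CPM in control at day 3 and 77.8 to 105 in control at day 5. In KO it had 72.8 to 90.8 CPM at day 3 and 71 to 75.2 at day 5. The motif of Atf4 with C/EBP (TGATGNAAT, both strands) was present for 1 of 25 Atf4 list genes with a window. Of all genes with a window it was present for 0.582%.

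Of 38 lysosome and autophagy genes 10 had a positive and 0 a negative interaction (26.3% called, beside 14.3% of all genes), with a median of 0.14. In control cells 22 fell over the days and in KO 9, beside 19.9% and 7.06% of all genes. The positive count was 6 without any 1 of control day 3 replicates 2 and 3, control day 5 replicates 1 and 2, KO day 3 replicate 3 and KO day 5 replicate 1. Npc1, which exports cholesterol from lysosomes (gene 18145), stood at 161, 163 and 173 CPM in control at day 3, 69.8, 70.9, 68.8 and 84.9 in control at day 5, 70.2, 71.4 and 73.2 in KO at day 3 and 68.1, 65.3, 67.2 and 63.3 in KO at day 5. Its 3 control libraries of day 3 were the highest, and the interaction was 1.05 ± 0.105 (SE), adjusted p = 5.89e-05. Without control day 5 replicate 4, which was high within its group, it was 1.13. Mcoln1, a calcium channel of the lysosome, had 67.7 to 92.4 CPM in control at day 3, 33.6 to 39.4 in control at day 5, 35.7 to 39.6 in KO at day 3 and 32 to 36.2 in KO at day 5. Mcoln1 had an interaction of 0.98 ± 0.138 (adjusted p = 0.000612). Sqstm1 (p62), an autophagy receptor, had an interaction of 0.90 ± 0.147 and fell in both genotypes. The TFEB motif GTCACGTGAC was present for 0 of 31 genes of this list with a window, and for 0.773% of all genes with a window.

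**Figure D4:**
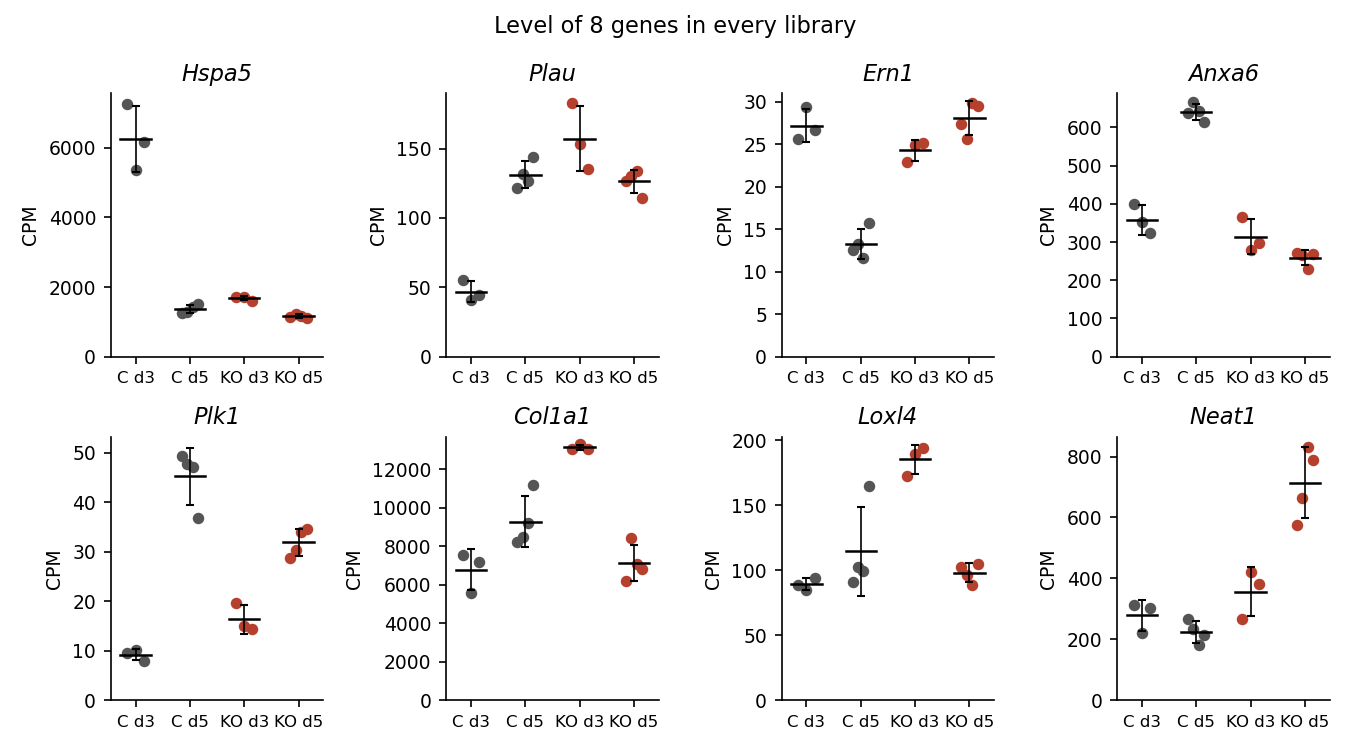
Level in CPM (y axes, from 0) of 8 genes in each library, grouped by genotype and day (x axes; C, control; d3 and d5, day), with the group mean as a long bar and the SD as the error bar. Control at day 3 is the highest group for Hspa5 and the lowest for Plau, and the group apart is control at day 5 for Ern1 and Anxa6, KO at day 3 for Loxl4 and KO at day 5 for Neat1, while Plk1 rose in both genotypes and Col1a1 fell in KO.

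Other genes were low in control at day 3 and had a negative interaction. Plau, the urokinase protease that activates plasminogen (gene 18792), stood at 55.5, 40.7 and 44.3 CPM in control at day 3, 122, 132, 127 and 144 in control at day 5, 183, 154 and 136 in KO at day 3 and 127, 130.1, 134 and 115 in KO at day 5. All 3 control libraries of day 3 were below the other 11, whose groups overlapped. KO relative to control was 1.75 ± 0.126 at day 3 and -0.05 ± 0.103 at day 5 (adjusted p = 0.685), with an interaction of -1.81 ± 0.162 (SE), adjusted p = 2.87e-05. Glrx, a glutaredoxin that reduces mixed disulfides, had 5.02 to 6.46 CPM in control at day 3, 16.9 to 20.7 in control at day 5, 18.5 to 26.9 in KO at day 3 and 18.9 to 24.2 in KO at day 5. Its interaction was -1.75 ± 0.22 (adjusted p = 0.00026). Camk2g, a calcium and calmodulin dependent kinase, had 80.7 to 101 CPM in control at day 3, 155 to 168 in control at day 5, 171 to 189 in KO at day 3 and 156 to 166 in KO at day 5, and -1.01 ± 0.105 (adjusted p = 7.80e-05). Timp1, an inhibitor of matrix metalloproteinases, had -0.80 ± 0.122 (adjusted p = 0.00101). Of 36 tested cytokines, chemokines and secreted factors, which hold Plau and Timp1, 2 interactions were positive (Il11 and Gdf15) and 7 negative. The share called was 25%, beside 14.3% of all genes, and the list median was -0.81. The Il11 call was lost with the embryo as a block and that of Gdf15 on leaving out any of 5 single libraries.

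The genes with the most positive interactions by the rule for named genes fell in control cells. Lonrf3, a RING finger protein (gene 74365), stood at 30.3, 28.7 and 26.7 CPM in control at day 3, 2.25, 4.15, 1.96 and 1.67 in control at day 5, 7.86, 10.3 and 8.35 in KO at day 3 and 8.92, 6.39, 5.43 and 4.7 in KO at day 5. Its level fell in control by -3.44 ± 0.265, and KO changed from below control at day 3 to above it at day 5, with an interaction of 3.04 ± 0.376 (SE), adjusted p = 0.000246. Lama1, the laminin alpha 1 chain, had 11 to 14.4 CPM in control at day 3, 0.655 to 1.35 in control at day 5, 6.83 to 10.4 in KO at day 3 and 4.51 to 6.32 in KO at day 5, and its KO effect went from -0.65 ± 0.224 to 2.28 ± 0.232, both called. Car6, a secreted carbonic anhydrase, fell in both genotypes, with 36.4 to 36.9 CPM in control at day 3, 0.571 to 0.901 in control at day 5, 5.46 to 7.04 in KO at day 3 and 0.28 to 1.62 in KO at day 5. Car6 had an interaction of 2.93 ± 0.504. Dlg2, a scaffold protein of the membrane, and Fat3, an atypical cadherin, had 2.58 ± 0.259 and 2.43 ± 0.34. Chchd10, a mitochondrial protein, had 2.88 ± 0.60, and its control level fell from 61.4 to 102 to 1.16 to 6.33 CPM.

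On the negative side, Mylk, the myosin light chain kinase of smooth muscle (gene 107589), stood at 9.59, 4.83 and 5.23 CPM in control at day 3, 48.7, 48, 48.2 and 66.5 in control at day 5, 99.4, 94.9 and 106 in KO at day 3 and 54.4, 75.3, 87.6 and 72.5 in KO at day 5. The control libraries of day 3 were the lowest, and control day 5 replicate 4 was the highest of its group. KO relative to control was 3.97 ± 0.249 at day 3 and 0.45 ± 0.177 at day 5, with an interaction of -3.52 ± 0.301 (SE), adjusted p = 3.98e-05; without control day 5 replicate 4 it was -3.40. Ano5, a membrane protein of the anoctamin family, had 0.228 to 0.311 CPM in control at day 3, 1.71 to 9.16 in control at day 5, 11.1 to 17.7 in KO at day 3 and 9.51 to 16.3 in KO at day 5. Its interaction was -4.03 ± 0.838 (adjusted p = 0.00756). Apol6, an apolipoprotein L, and Aoc3, an amine oxidase of the cell surface, were under 1.3 CPM in each control library of day 3 and had interactions of -3.54 ± 0.54 and -3.80 ± 0.776.

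For 202 genes the KO effect passed the test on both days with opposite signs, 99 with a positive and 103 with a negative interaction. Besides Atf6, the positive ones with the smallest p were Rhbdd1, a rhomboid protease, and Ero1b, an oxidase that feeds disulfide bonds into ER folding. Ero1b (gene 67475) stood at 19.2, 20.5 and 23.7 CPM in control at day 3, 5.08, 4.98, 5.21 and 6.55 in control at day 5, 10.8, 8.92 and 12 in KO at day 3 and 11.6, 14.6, 11.8 and 11 in KO at day 5. KO lay between the control days, so it was below control at day 3 (-0.96 ± 0.152) and above it at day 5 (1.16 ± 0.134). Its interaction was 2.12 ± 0.203 (SE), adjusted p = 4.45e-05, and without control day 5 replicate 4 it was 2.22. Rhbdd1 had 113 to 121 CPM in control at day 3, 36.7 to 46.3 in control at day 5, 56.8 to 66.2 in KO at day 3 and 50.8 to 55.2 in KO at day 5. Rhbdd1 had an interaction of 1.23 ± 0.113 (adjusted p = 3.56e-05). Among negative ones, Gpr153, an orphan receptor, roughly doubled over the days in control (1.13 ± 0.0861) and missed the threshold in KO (-0.09 ± 0.0852), with an interaction of -1.22 ± 0.12 (SE), adjusted p = 5.09e-05. Ccnd3, the G1 cyclin D3 (gene 12445), stood at 100.3, 105 and 103 CPM in control at day 3, 170.0, 173, 169 and 173 in control at day 5, 135, 129 and 140.3 in KO at day 3 and 142, 129.9, 131 and 127 in KO at day 5. KO was above control in every library of day 3 and below it in every library of day 5, with an interaction of -0.76 ± 0.0819 (SE), adjusted p = 9.52e-05. Sh3d19 rose in control (0.71 ± 0.081) and fell in KO (-0.30 ± 0.08), both called, with an interaction of -1.02 ± 0.114.

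Control at day 5 stood apart for 368 genes. Besides Ern1, the low ones with the smallest p were Rab11fip1, an effector of the recycling GTPase Rab11, and Atg14, a subunit of the autophagy lipid kinase. Rab11fip1 (gene 75767) stood at 28.7, 32.8 and 25.2 CPM in control at day 3, 9.65, 11.4, 8.96 and 9.6 in control at day 5, 25.8, 21.1 and 24.4 in KO at day 3 and 23.1, 24.3, 21.3 and 20.1 in KO at day 5. Its 4 control libraries of day 5 lay near 10 CPM and the other 10 at 20 CPM or more, with an interaction of 1.40 ± 0.164 (SE), adjusted p = 0.000163. Atg14 had 26.1 to 29.4 CPM in control at day 3, 13.2 to 16.4 in control at day 5, 21.7 to 25.6 in KO at day 3 and 22.4 to 25.6 in KO at day 5, and 0.94 ± 0.142 (1.03 without control day 5 replicate 4). Myc, the transcription factor, belonged here too, with 129 to 146 CPM in control at day 3, 48.6 to 72.5 in control at day 5, 102 to 119 in KO at day 3 and 83.7 to 100.4 in KO at day 5. Its interaction was 0.83 ± 0.168 (adjusted p = 0.00537). All 4 groups of Myc were separate, so it belongs to this class by the calls alone. Its KO effect at day 3, -0.31 ± 0.127, just missed the threshold (adjusted p = 0.0531).

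Eno3, Anxa6 and Chst12 were high in control at day 5. Anxa6, an annexin of membranes (gene 11749), stood at 399, 352 and 323 CPM in control at day 3, 638, 667, 644 and 614 in control at day 5, 366, 278 and 299 in KO at day 3 and 272, 265, 229.9 and 269.6 in KO at day 5. Only control at day 5 exceeded 600 CPM. KO relative to control was -0.18 ± 0.109 at day 3 (adjusted p = 0.17) and -1.31 ± 0.0951 at day 5, with an interaction of -1.12 ± 0.144 (SE), adjusted p = 0.000299. Eno3, the enolase of muscle, had 15.8 to 17.9 CPM in control at day 3, 53.7 to 71.3 in control at day 5, 15.6 to 24.5 in KO at day 3 and 18.9 to 25.4 in KO at day 5, and -1.72 ± 0.209 (adjusted p = 0.000192). Chst12, a sulfotransferase of chondroitin, had 35.8 to 38.8 CPM in control at day 3, 85.5 to 107 in control at day 5, 33.8 to 43.2 in KO at day 3 and 40.3 to 48.4 in KO at day 5, and -1.12 ± 0.149 (-1.04 without control day 5 replicate 4). Dram1, a p53 target of the lysosome, had -1.37 ± 0.294.

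Genes of mitosis rose over the days in both genotypes, and for 24 of them the rise in control was the larger by the test of the interaction. Of 50 tested members 49 rose in control (median 1.59) and 40 in KO (median 0.80), beside 18.3% and 4.98% of all genes. KO was higher than control for 32 at day 3, and at day 5 it was higher for 2 and lower for 10. Of all genes KO was higher for 24.6% at day 3, and at day 5 it was higher for 26.3% and lower for 26.2%. The interaction was negative for 24 and positive for 0 (48% called, beside 14.3% of all genes), with a median of -0.85. The negative count was 9 without control day 3 replicate 3, 9 without KO day 3 replicate 2, 11 without control day 3 replicate 2 and 39 without control day 5 replicate 4. Plk1, a kinase of mitotic entry and spindle assembly (gene 18817), stood at 9.59, 10 and 7.93 CPM in control at day 3, 49.4, 47.8, 47.1 and 36.7 in control at day 5, 19.7, 15 and 14.4 in KO at day 3 and 28.8, 30.3, 34 and 34.5 in KO at day 5. KO was above control in every library of day 3 and below it in every library of day 5. The Plk1 interaction was -1.38 ± 0.196 (SE), adjusted p = 0.000631, and its KO effect went from 0.88 ± 0.157 to -0.51 ± 0.117, both called. Within embryos Plk1 changed by 0.62, 1.17 and 1.25 in KO and by 2.32 and 2.55 in control.

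Nuf2, a kinetochore protein, had 5.68 to 9.82 CPM in control at day 3, 32 to 46.6 in control at day 5, 16.4 to 22.7 in KO at day 3 and 34.5 to 42.3 in KO at day 5. Nuf2 had an interaction of -1.45 ± 0.242 (adjusted p = 0.00175). Ncapd2, a subunit of condensin, had 35.8 to 43.3 CPM in control at day 3, 75.3 to 116 in control at day 5, 45.5 to 57.5 in KO at day 3 and 69 to 76.5 in KO at day 5. Its lowest control library of day 5 was replicate 4, and the interaction was -0.91 ± 0.189 with and -1.04 without that library. Nusap1, a spindle protein, had -0.95 ± 0.20 (adjusted p = 0.00689).

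Many mitotic promoters hold the cell cycle genes homology region (CHR, TTTGAA, both strands), which the DREAM complex binds. It is shown for Ncapd2 in the 200 bases before the start, with the element in capitals at -123. Ncapd2 was picked with these matches known. Plk1 had the CHR in its window but not in these 200 bases, and Nuf2 and Nusap1 had none in theirs. The Ncapd2 start used lies inside the annotated gene, which reaches base 125192100.
Ncapd2, chr6:125191587-125191786, strand -: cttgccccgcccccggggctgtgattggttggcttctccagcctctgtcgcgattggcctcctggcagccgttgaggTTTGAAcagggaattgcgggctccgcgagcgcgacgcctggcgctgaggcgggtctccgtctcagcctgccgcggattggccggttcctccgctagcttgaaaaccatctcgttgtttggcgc
The CHR was in the windows of 30 of 41 mitosis members (73.2%) and of 14.2% of all genes with a window. Within the list, 16 of 30 members with the CHR had a negative interaction (median -0.88) and 4 of 11 without it (median -0.82).

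DNA replication and G1/S genes showed the same direction with fewer calls. Of 48 replication members 8 had a negative and 0 a positive interaction (16.7% against 14.3% of all genes). Over the days 40 rose in control and 23 in KO, beside 18.3% and 4.98% of all genes. The negative count was 4 without KO day 3 replicate 2, 5 without control day 3 replicate 3, 24 without control day 5 replicate 4 and 15 with the embryo as a block. Rrm2, a subunit of ribonucleotide reductase (gene 20135), stood at 22, 20.2 and 20.2 CPM in control at day 3, 140.4, 135, 119.8 and 92.9 in control at day 5, 62.4, 51.7 and 37.2 in KO at day 3 and 119.6, 123, 123 and 129 in KO at day 5. KO was above control in every library of day 3, and the groups overlapped at day 5. The Rrm2 interaction was -1.27 ± 0.223 (SE), adjusted p = 0.00261. Rpa1, the large subunit of the single-strand binding protein, changed its KO effect from 0.35 ± 0.088 to -0.45 ± 0.0736, both called. Mcm4, of the replicative helicase, had -0.91 ± 0.214, and -1.06 without control day 5 replicate 4, the lowest of its group.

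Of 19 G1/S regulators 6 had a negative and 1, Myc, a positive interaction (36.8% called, beside 14.3% of all genes). The negative count was 3 without KO day 3 replicate 2. Ccne1, cyclin E1, had 12.7 to 13.8 CPM in control at day 3, 33.2 to 38.4 in control at day 5, 16.9 to 20.7 in KO at day 3 and 24.6 to 26.9 in KO at day 5, with a KO effect of 0.44 ± 0.0979 at day 3 and -0.52 ± 0.0756 at day 5, both called. Among 7 CDK inhibitors Cdkn2c (p18) alone had a call, -1.21 ± 0.235 (adjusted p = 0.00419), with 3.27 to 4.48 CPM in control at day 3, 8.31 to 10.7 in control at day 5, 11.2 to 14 in KO at day 3 and 10.2 to 14.9 in KO at day 5. For homologous recombination and Fanconi genes 6 of 40 were negative (15%), near the 14.3% of all genes. That count was 15 without control day 5 replicate 4, 1 without control day 5 replicate 1 or KO day 5 replicate 1, 2 without control day 3 replicate 2 or 3, control day 5 replicate 2 or 3 or KO day 3 replicate 2, and 3 without KO day 5 replicate 2, 3 or 4.

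The p53 targets went both ways, 4 positive and 5 negative of 35 (25.7% called, beside 14.3% of all genes). The negative count was 2 without control day 3 replicate 2 or 3, control day 5 replicate 3 or KO day 5 replicate 3, and 3 without control day 3 replicate 1 or KO day 5 replicate 4; the positive count was 1 without control day 3 replicate 3, 2 without control day 3 replicate 2, KO day 3 replicate 4 or KO day 5 replicate 4, 2 with the embryo as a block, and 1 without the filter or with only embryos of both days. Gadd45a, a growth arrest gene (gene 13197), stood at 116, 100.2 and 112 CPM in control at day 3, 16.3, 15.9, 18.9 and 15.8 in control at day 5, 39.5, 44.1 and 38.4 in KO at day 3 and 21.2, 17.5, 18.2 and 17.8 in KO at day 5. It fell in both genotypes, and the groups of day 5 overlapped. The Gadd45a interaction was 1.62 ± 0.131 (SE), adjusted p = 1.97e-05. Fas, a death receptor, had 4.36 to 5.37 CPM in control at day 3, 11.3 to 18.8 in control at day 5, 14.8 to 24.1 in KO at day 3 and 17.6 to 22.3 in KO at day 5, and -1.50 ± 0.277 (adjusted p = 0.00317). Klf4, a transcription factor among the immediate early genes, had 389.8 to 435 CPM in control at day 3, 160.4 to 199 in control at day 5, 197 to 212 in KO at day 3 and 163 to 184 in KO at day 5, and 0.99 ± 0.113 (adjusted p = 0.000139).

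Extracellular matrix genes had 11 negative and 0 positive interactions of 38 (28.9% called, beside 14.3% of all genes), with a median of -0.69. In this list the KO cells moved too: 9 members fell over the days in KO and 0 rose, while in control 11 rose and 2 fell. Of all genes 7.06% fell and 4.98% rose in KO, and 18.3% rose and 19.9% fell in control. KO was higher than control for 22 members at day 3 and for 7 at day 5. Of all genes KO was higher for 24.6% at day 3 and 26.3% at day 5. Col1a1, the alpha 1 chain of type I collagen (gene 12842), stood at 7559, 5565 and 7187 CPM in control at day 3, 8223, 8499, 9214 and 11161 in control at day 5, 13036, 13282 and 13068 in KO at day 3 and 6199, 8407, 7052 and 6798 in KO at day 5. The KO libraries of day 3 were the highest of all, and at day 5 KO overlapped control at its low end. Col1a1 changed by 0.45 ± 0.149 in control and -0.88 ± 0.146 in KO, both called, with an interaction of -1.34 ± 0.209 (SE), adjusted p = 0.00119. Its partner Col1a2 had 4790.2 to 5603 CPM in control at day 3, 5929 to 7879.6 in control at day 5, 7388 to 8291 in KO at day 3 and 4016 to 5389.9 in KO at day 5, fell in KO (-0.76 ± 0.131) and had an interaction of -1.07 ± 0.187 (adjusted p = 0.0023).

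Thbs1, the matrix protein thrombospondin 1 (gene 21825), followed the control cells. It stood at 4394, 2679.5 and 3545 CPM in control at day 3, 10680, 10787, 10613 and 22729 in control at day 5, 17831, 20282 and 21633 in KO at day 3 and 17089, 18603, 22262 and 24174 in KO at day 5. The control libraries of day 3 had the least, and control day 5 replicate 4 was level with KO while its 3 group mates were not. The interaction was -1.91 ± 0.371 (SE), adjusted p = 0.00427, and -1.55 without that library. Col3a1, of type III collagen, had 783 to 1239 CPM in control at day 3, 1722 to 2139 in control at day 5, 2517 to 4623 in KO at day 3 and 2109.7 to 3226 in KO at day 5, and -1.54 ± 0.302, a call that was lost with the embryo as a block (adjusted p = 0.101).

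Contractile genes, targets of SRF and YAP, had 9 negative and 0 positive interactions of 30 (30% called, beside 14.3% of all genes). The count was 4 without control day 3 replicate 3, 5 without KO day 3 replicate 2, 14 without control day 3 replicate 1 and 3 with the embryo as a block. In control 16 rose over the days and in KO 1, beside 18.3% and 4.98% of all genes. Myl9, the regulatory light chain of smooth muscle myosin (gene 98932), stood at 298, 168 and 178 CPM in control at day 3, 516, 554, 542 and 678 in control at day 5, 465, 415 and 408 in KO at day 3 and 324, 348, 448 and 425 in KO at day 5. KO was above control at day 3 in every library and below it in every library at day 5, and replicate 1 was the highest control library of day 3. The Myl9 interaction was -1.57 ± 0.256 (SE), adjusted p = 0.00173. Tpm1, tropomyosin 1, had 719.6 to 1105 CPM in control at day 3, 2058 to 2281 in control at day 5, 1918 to 3235 in KO at day 3 and 2691 to 3136 in KO at day 5, and -1.13 ± 0.239 (adjusted p = 0.00713).

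Cartilage and bone genes, of which 19 of 27 were tested, had 4 negative and 0 positive interactions (21.1% called, beside 14.3% of all genes). The negative count was 1 without any 1 control library of day 3. KO was higher than control for 17 at day 3 and 12 at day 5, beside 24.6% and 26.3% of all genes. Their summed level was 300 to 506 CPM in control at day 3, 494 to 3550 CPM in control at day 5, 3580 to 4160 CPM in KO at day 3 and 2530 to 4910 CPM in KO at day 5, with Snorc at 0 throughout. Matn3, a matrix protein of cartilage, had 0.373 to 0.623 CPM in control at day 3, 2.28 to 4.95 in control at day 5, 9.06 to 12.7 in KO at day 3 and 8.36 to 17.6 in KO at day 5, and -2.40 ± 0.529, or -2.06 without control day 5 replicate 4, the highest of its group. Whether cells of another kind had a part in the matrix and contractile results was not tested. The skeletal muscle markers ran from 195 to 451 CPM in sum and the fibroblast markers from 28900 to 29700 CPM in KO at day 3 and 18000 to 21200 CPM in KO at day 5.

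For 56 genes KO at day 3 was the group apart. This count was 26 without KO day 3 replicate 4, 27 without KO day 5 replicate 3, 30 without KO day 5 replicate 4, 37 without KO day 3 replicate 3, 34 without control day 3 replicate 2 and 88 without control day 5 replicate 4. Loxl4, a lysyl oxidase that crosslinks collagen (gene 67573), stood at 88.8, 84.7 and 94.1 CPM in control at day 3, 90.9, 102, 99.4 and 165 in control at day 5, 172, 189 and 194 in KO at day 3 and 103, 96.6, 88.6 and 104 in KO at day 5. The KO libraries of day 3 were the highest, with control day 5 replicate 4 next to them. The Loxl4 interaction was -1.28 ± 0.227 (SE), adjusted p = 0.0029, and -1.04 without that control library. Ppp1r3c, which targets protein phosphatase 1 to glycogen (gene 53412), stood at 4.34, 3.66 and 5.04 CPM in control at day 3, 4.57, 6.7, 6.19 and 4.22 in control at day 5, 11.2, 15 and 20.3 in KO at day 3 and 4.3, 4.48, 5.33 and 5.14 in KO at day 5. Only the 3 KO libraries of day 3 exceeded 10 CPM, and its interaction was -1.99 ± 0.32 (SE), adjusted p = 0.00137. Tet1, an oxidase of methylated cytosine in DNA, had 6.31 to 9.99 CPM in control at day 3, 7.35 to 11.1 in control at day 5, 17.2 to 19.3 in KO at day 3 and 7.64 to 10.2 in KO at day 5, and -1.17 ± 0.241 (adjusted p = 0.00599).

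Lower in KO at day 3 than in the other groups were Taf1a, Cspp1 and Cuedc1. Taf1a, a subunit of the factor that starts ribosomal RNA transcription, had 10.7 to 13.2 CPM in control at day 3, 9.29 to 11.8 in control at day 5, 7.25 to 7.98 in KO at day 3 and 10.1 to 14.7 in KO at day 5. Its interaction was 0.94 ± 0.201 (adjusted p = 0.00728). Cspp1, a protein of centrosomes and spindles, and Cuedc1 had 0.56 ± 0.117 and 0.60 ± 0.129. These sizes were below the 0.741 median of called genes, except that of Taf1a.

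KO at day 5 was the group apart for 74 genes. The count was 37 without KO day 5 replicate 4, 38 without KO day 5 replicate 3, 42 without control day 3 replicate 3, 49 without KO day 3 replicate 4, 121 without control day 5 replicate 4 and 120 without both control day 5 replicate 4 and KO day 5 replicate 1. Neat1, the long noncoding RNA that builds paraspeckles (gene 66961), stood at 312, 220.0 and 302 CPM in control at day 3, 268, 233, 180.2 and 213 in control at day 5, 266, 421 and 383 in KO at day 3 and 576, 664, 832 and 787 in KO at day 5. Every KO library of day 5 was above every other library. Neat1 rose in KO by 1.01 ± 0.188 and its change in control missed the threshold (-0.31 ± 0.183), with an interaction of 1.32 ± 0.261 (SE), adjusted p = 0.00514. Leng8, a nuclear protein linked to mRNA export (gene 232798), stood at 123, 156 and 166 CPM in control at day 3, 141, 137, 125 and 93.3 in control at day 5, 136, 172 and 136 in KO at day 3 and 229.8, 255, 299 and 305 in KO at day 5. KO at day 5 was again the highest group, and the other 3 overlapped. The Leng8 interaction was 1.15 ± 0.217 (SE), adjusted p = 0.00388. Ndor1, a flavoprotein oxidoreductase, had 0.58 ± 0.117.

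Zdhhc9, a palmitoyltransferase that acts on Ras proteins (gene 208884), was the low counterpart, at 83.3, 75.3 and 71.6 CPM in control at day 3, 80.3, 76.7, 73.2 and 88.9 in control at day 5, 65.8, 64.8 and 68.3 in KO at day 3 and 43.6, 43.2, 39.8 and 44.4 in KO at day 5. No KO library of day 5 reached 45 CPM, and no other library was under 64 CPM. The interaction was -0.69 ± 0.11 (SE), adjusted p = 0.00124. Tlcd3a had 11.6 to 12.9 CPM in control at day 3, 11 to 14.1 in control at day 5, 11.3 to 13.7 in KO at day 3 and 5.7 to 6.11 in KO at day 5, and -1.05 ± 0.172 (adjusted p = 0.00156). Mmp14, a membrane-bound metalloproteinase that cleaves collagen, had 574 to 619.8 CPM in control at day 3, 569 to 752 in control at day 5, 634 to 671 in KO at day 3 and 412 to 506 in KO at day 5, and -0.65 ± 0.141 (adjusted p = 0.00785). Rhobtb3 had -0.54 ± 0.114.

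Glycolysis and hypoxia genes fell in both genotypes, 27 of 30 in each, while of all genes 19.9% fell in control and 7.06% in KO. The interaction was positive for 1 and negative for 3 (13.3% called), under the 14.3% of all genes. The negative count was 10 without control day 5 replicate 4 and 7 with the embryo as a block. Slc16a3, the lactate exporter MCT4 (gene 80879), stood at 556, 536 and 521 CPM in control at day 3, 340.2, 374, 346 and 221 in control at day 5, 182, 161 and 144 in KO at day 3 and 53.3, 58.3, 47 and 45.5 in KO at day 5. All 4 groups were separate, and KO at day 5 was the lowest. Its KO effect grew from -1.72 ± 0.164 to -2.65 ± 0.146, with an interaction of -0.93 ± 0.212 (SE), adjusted p = 0.0111. Pfkl, the liver form of phosphofructokinase, had 453 to 527 CPM in control at day 3, 264 to 405 in control at day 5, 433 to 488 in KO at day 3 and 159 to 223 in KO at day 5, and -0.82 ± 0.195 (adjusted p = 0.0126). Eno2, an enolase, had the opposite sign, 1.04 ± 0.19, with control at day 3 apart (50.9 to 60.5 CPM in control at day 3, 19.9 to 27.1 in control at day 5, 19.1 to 25.9 in KO at day 3 and 18.4 to 24.7 in KO at day 5).

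Lists with a share of called interactions below that of all genes (14.3%) included those of cholesterol, interferon response, ribosomal proteins and oxidative phosphorylation. Cholesterol synthesis and uptake had 0 calls of 25 by edgeR (1 at an unadjusted p under 0.05, 1 negative by DESeq2). There were 8 negative calls with the embryo as a block and 3 without control day 5 replicate 4. KO was lower for 13 members at day 3 and 23 at day 5, beside 26.2% of all genes on each day. Interferon response genes had 1 call of 40, Ifit3b, which was negative. With the embryo as a block there were 0 calls, by DESeq2 5 negative ones and without control day 5 replicate 4 there were 4. KO was higher for 20 members at day 3 and for 9 at day 5, beside 24.6% and 26.3% of all genes. The change from 20 to 9 is not shown by the test of the difference. Of 80 cytosolic ribosomal protein genes 4 were positive, under the 14.3% of all genes. That count was 1 with the embryo as a block, 1 without control day 3 replicate 3 and 9 without KO day 3 replicate 4. KO was lower for 62 at day 3 and 36 at day 5, beside 26.2% of all genes on each day. Reads of ribosomal protein genes can also match their processed pseudogenes, so their counts may be uncertain. How far this held here was not tested. Of 44 oxidative phosphorylation genes 4 were negative, with 0 when the embryo was a block or control day 3 replicate 3 was left out, and KO differed from control for 25% of them at day 3 and 45.5% at day 5, below the 50.9% and 52.5% of all genes.

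Within the complex of Tip60 itself, 4 of 18 members had a positive interaction and 0 a negative one (22.2% called, beside 14.3% of all genes), and 1 was positive with the embryo as a block or without KO day 3 replicate 4, KO day 5 replicate 3 or KO day 5 replicate 4. Mbtd1, a subunit that reads methylated histone H4 (gene 103537), stood at 41.9, 42.4 and 43.5 CPM in control at day 3, 27.2, 23.6, 26.9 and 31.5 in control at day 5, 30.8, 31.9 and 36.6 in KO at day 3 and 29.9, 31.2, 32.2 and 31.2 in KO at day 5. The control libraries of day 3 had the most, and the interaction was 0.55 ± 0.132 (SE), adjusted p = 0.0136. For H2A.Z and its exchange factors 2 of 15 were positive (13.3% against 14.3% of all genes).

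**Figure D5:**
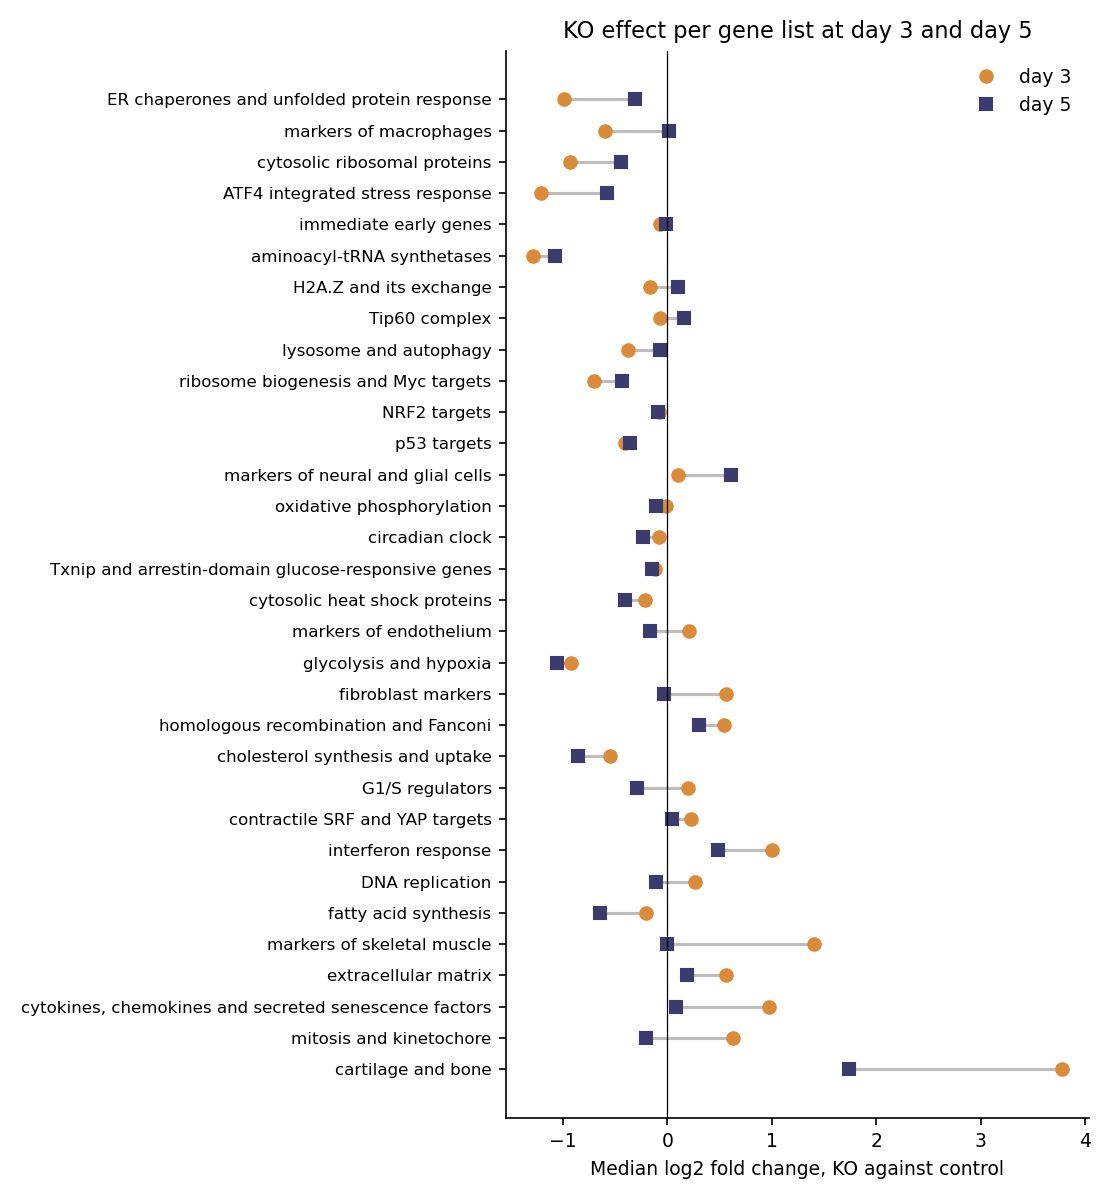
Median log2 fold change of KO against control (x axis) over the tested members of each gene list with at least 9 of them (y axis, ordered by the median interaction, the most positive at the top), at day 3 (orange circles) and day 5 (dark squares). The ER list moved from -0.99 to -0.31 and the mitosis list from 0.62 to -0.20.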

How the data were processed

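The submitters' processing notes name featureCounts and mm10. The sources used here do not give the aligner, annotation, version or strand setting, so overlapping and antisense genes cannot be told apart. The deposited values are raw counts per gene, 1 file per library, per the file headers. Rows without a gene identifier (909, 0.194% to 0.315% of counts) and 112 sex-linked genes (Xist, Tsix, Y) were left out. Tests used edgeR 4.0.16 under R 4.3.3 with limma 3.58.1. After filterByExpr and TMM scaling, the robust quasi-likelihood test of each contrast came from 1 model with a mean for each group, and p was adjusted by Benjamini-Hochberg over 14327 genes and called under 0.05. SE is the size of the log2 fold change over the root of its F statistic. CPM uses TMM-scaled totals, and CPM lists run in replicate order (1 to 3, or 1 to 4; KO at day 3, 2 to 4). Scripts were tested on simulated data.

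Members and lists (36 lists, 940 of 941 members matched) were chosen with earlier results of these data known. Named genes are Kat5, those with the most positive and most negative interactions (means of at least 2 CPM in 2 groups), those with the smallest p per pattern, and up to 4 per list. Not all genes that this rule selects are reported, and those given with levels kept their calls more often than the rest. Chosen after their values were seen were Hsp90b1, Pdia6, Creld2, Derl3, Sec24d, Xbp1, Slc7a11, Dram1, Adm2 and the list members named without being described. Symbols and promoters are from RefSeq (GRCm38.p6). Embryo identifiers pair days within a genotype, and same-embryo residuals correlated at -0.023 to 0.204. Alternatives were other scalings, no filter, blocks by embryo or replicate number, sex, litters, DESeq2 1.42.0 and leaving out each library.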

Additional observations from a re-analysis of the deposited data

Results flagged for a closer look

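The KO effect differed between day 3 and day 5 for 2051 genes by the interaction test. Among the 82 genes named with their levels, each group of 4 was checked for a library whose gap to the nearest other exceeded Dixon's 95% limit. That gave 13 of 164 gene and group pairs (7.93%), where chance flags about 1 in 20.

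Control day 5 replicate 4 was the library concerned in 10 of them. It was the highest of its group for Mylk (66.5 CPM), Ero1b (6.55 CPM), Npc1 (84.9 CPM), Chst12 (107 CPM), Atg14 (16.4 CPM), Loxl4 (165 CPM), Thbs1 (22729 CPM) and Matn3 (4.95 CPM), and the lowest for Ncapd2 (75.3 CPM) and Mcm4 (76.4 CPM). The same library was apart on the first principal component (-0.0705). It is the only male control and the only library of its litter. Their part in these values was not tested. Without it 81 of the 82 genes had a called interaction, as with it, the exception being Kat5.

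The other 3 lay in KO at day 5. KO replicate 2 was the highest for Gpr153 (61.7 CPM), replicate 3 the lowest for Anxa6 (229.9 CPM) and replicate 4 the highest for Nusap1 (34.5 CPM).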

How the results depend on the processing

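No called interaction among the genes named changed sign in any of the 24 alternatives. Of 1968 recomputed values for the 82 genes given with their levels, 1967 kept their side of the threshold and 1, Col3a1 with the embryo block, did not. These 82 are not typical: of 127 called genes that the rule for named genes selects, 38 lost their call in at least 1 alternative, and 1 of the 38 is among the 82. Of 30 further called genes named without levels, 17 lost theirs in at least 1, among them Xbp1, Canx, Il11, Gdf15, Ifit3b, Des and Nr1d1. The number of genes with an interaction was 2040 with RLE scaling, 2081 with upper quartile scaling, 1677 without the filter, 2386 with DESeq2, 2478 with sex as a covariate, 1805 with only embryos of both days, 1806 with control day 3 replicates 1 and 2 summed, and 2641 without control day 5 replicate 4 and KO day 5 replicate 1 (chosen after seeing the data). With the replicate block by embryo it was 1561, of which 1190 were also called without it; this block cannot estimate KO against control, so the patterns were not recomputed under it, and it ended the calls of 9 of the 30 genes named without levels. With the replicate block by number, which pairs unrelated embryos between the genotypes, it was 2151. The genes with KO at day 5 apart numbered 120 without control day 5 replicate 4 and KO day 5 replicate 1.

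Leaving out each library in turn gave 1275 to 2750 interactions, 657 to 1336 positive and 618 to 1414 negative. KO differed from control for 6244 to 7959 genes at day 3 and 6502 to 8376 at day 5. Genes that changed over the days numbered 4362 to 5686 in control and 1024 to 2549 in KO, and the share with the larger change in control was 78.96% to 88.4%. Control at day 3 was apart for 381 to 610 genes, control at day 5 for 235 to 492, KO at day 3 for 26 to 88 and KO at day 5 for 37 to 121. Leaving out control day 3 replicate 3 gave the lowest total and control day 5 replicate 4 the highest; the cause was not tested. Litter cannot be told apart from genotype, KO day 3 replicate 3 has 2187168 counts, and genes of a few CPM such as Derl3, Apol6 and Ano5 are the least precise.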

Other observations

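Other lists, apart from those of cell type markers, had calls for 8.33% to 18.2% of their tested members, around the 14.3% of all genes. Of 41 genes of ribosome biogenesis and Myc targets, 6 had a positive and 1 (Bop1) a negative interaction. KO was lower for 34 at day 3 and 33 at day 5, beside 26.2% of all genes on each day. The positive ones were Myc (0.83), Utp15 (0.63), Rrs1 (0.60), Gnl3 (0.59), Npm1 (0.58) and Nop14 (0.46). The Npm1, Nop14 and Gnl3 calls were lost on leaving out any of 6, 3 and 2 single libraries. Nop14 also lost its call with the embryo as a block, and Nop14 and Rrs1 with only embryos of both days. Of 18 circadian clock genes the paired repressors Nr1d1 (0.51) and Nr1d2 (0.59) were positive (11.1%); the Nr1d1 call was lost on leaving out any of 8 single libraries (adjusted p up to 0.0951) and with the embryo as a block. Of 20 cytosolic heat shock proteins Hspa8 was positive (0.78) and Dnajb4 (-0.75) and Hspa1b (-0.67) negative (15% called). The Dnajb4 call was lost on leaving out any of 6 single libraries and the Hspa1b call on leaving out any of 10, and the list had 0 to 5 negative calls over all 14 such fits. NRF2 targets had 2 positive interactions of 21, Gclc (0.55) and Slc7a11 (1.76), both in glutathione supply. In the list around Txnip, Arrdc3 (-1.13) and Arrdc1 (0.64) had opposite signs, but the Arrdc1 call was lost on leaving out any of 10 single libraries (adjusted p up to 0.0938). Fads2, a fatty acid desaturase, was the call among 12 fatty acid genes (-0.88), lost on leaving out any of 3 single libraries.

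Fibroblast markers had 3 negative and 0 positive interactions of 14 (21.4% called, beside 14.3% of all genes). Markers of other cell types had 0 or 1 call in each list by edgeR. At 6 to 13 tested members, a share below that of all genes cannot be read from these lists. Macrophage markers had 1 positive of 13 (Cd68, 1.03), with summed levels of 119 to 172 CPM in control at day 3 and 78.9 to 111 CPM in KO at day 3, and skeletal muscle markers 1 negative of 9 (Des, -1.37). The Des call was lost on leaving out any of 11 single libraries (adjusted p up to 0.123), with the embryo or the replicate number as a block, with sex as a covariate and without the filter. By edgeR the calls were 0 of 9 endothelial, 0 of 10 neural and glial, 0 of 6 epithelial and 0 of 6 adipocyte markers. At an unadjusted p under 0.05 there were 3, 0, 1 and 2, and by DESeq2 0, 0, 1 and 1. Epithelial markers summed to 133 to 210.0 CPM in control at day 3 and 41.2 to 66.5 CPM in control at day 5.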
